A study of Rattus norvegicus with 8 samples.

Results

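The miR-379/miR-410 cluster is the distal array of miRNA genes in the imprinted Dlk1-Dio3 domain, and its mature miRNAs were followed here in rat bone around titanium implants. Members were the rows of the miRNA table named rno-miR- with the number of a cluster hairpin (miR-134, miR-379, miR-410 and so on), with any letter or arm. This gave 52 mature miRNAs from 31 hairpins, of 974 miRNAs in all (604 catalogued, with the prefix rno-, and 370 predicted). All 52 were found in the RefSeq miRNA table of the build GRCr8, on rat chromosome 6. The hairpin of miR-341 lies just upstream of that of miR-379, beside Mir1188, and Mir299b lies on the opposite strand to the others.

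Small RNA was sequenced from 4 hyperlipidemic and 4 normal libraries of femur bone from male Wistar rats aged 12-13 weeks. The hyperlipidemic rats had received a high-fat diet and the normal rats a normal diet, each for 8 weeks. All rats, normal ones included, carried titanium root-form implants in both femoral shafts. At 10 days the bone up to 1 mm from the implant was dissected and freed of muscle. The groups differ in diet alone as far as the labels say, and no lipid level is given for any rat. Nothing in the labels ties a library to 1 animal, so p-values measure the spread between these libraries, which may be in part technical.

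The cluster is transcribed from the maternally inherited chromosome as long non-coding RNA from which the hairpins are cut, while the paternal copy is silent. Each hairpin can give a mature miRNA from its 5′ arm (5p) and one from its 3′ arm (3p), and bases 2 to 8 of the mature miRNA, the seed, direct it to its target mRNAs. In rodents these miRNAs are abundant in brain and in embryonic tissues and low in most adult organs. In cultured rat neurons miR-134 restrains dendritic spines through Limk1, and miR-134, miR-329 and miR-381 take part in activity-dependent dendrite growth.

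The sequences below, read from the RefSeq table of GRCr8, are written 5′ to 3′ with the seed in capitals. The first 4 are both arms of the neighbouring hairpins Mir379 and Mir411, which held the most abundant members.
miR-379-5p: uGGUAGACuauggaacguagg
miR-411-5p: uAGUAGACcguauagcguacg
miR-379-3p: cUAUGUAAcaugguccacuaac
miR-411-3p: uAUGUAACacgguccacuaa
The 3p pair is 3 edits apart over its whole length, yet its seeds are offset from one another. The next 3 are the 3p arms of the miR-376 family, a family whose primary transcripts can be edited from A to I within the seed in mouse and human brain. One of them, miR-376c-3p, had the highest fold of the cluster.
miR-376a-3p: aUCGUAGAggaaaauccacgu
miR-376b-3p: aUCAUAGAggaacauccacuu
miR-376c-3p: aACAUAGAggaaauuucacgu
From miR-376a-3p, miR-376b-3p is 3 edits away and miR-376c-3p is 4. The 3 have different seeds, and how reads with mismatches were divided among them depends on the counting rule. Exact seeds were shared by 4 pairs of members, of which these 2 pairs lie on separate hairpins of the same strand.
miR-381-3p: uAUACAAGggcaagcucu
miR-539-3p: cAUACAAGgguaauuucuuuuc
miR-376b-5p: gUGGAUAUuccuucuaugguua
miR-376c-5p: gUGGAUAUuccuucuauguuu
The other 2 pairs are the 5p and the 3p arms of miR-299a and miR-299b, whose hairpins lie on opposite strands. In each of the 4 pairs, 1 miRNA had enough reads to be tested and the other had not. The last 4 sequences are the members with the next highest folds after miR-376c-3p (miR-329-3p and miR-299a-5p), the one with the lowest (miR-409a-5p), and miR-541-5p, the fourth most abundant.
miR-329-3p: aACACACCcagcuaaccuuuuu
miR-299a-5p: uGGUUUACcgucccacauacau
miR-409a-5p: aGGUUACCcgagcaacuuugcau
miR-541-5p: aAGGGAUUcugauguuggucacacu

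Sequencing depth differed between the groups. The rno- miRNAs of the table held 2403566 to 4314320 reads in hyperlipidemic libraries, against 846277 to 1552051 reads in normal libraries. One read was worth 0.208 to 0.378 reads per 1000000 (RPM) in hyperlipidemic and 0.572 to 1.01 RPM in normal libraries, so low values are coarser in normal libraries. A member listed at 0 may have had up to 3 reads' worth, which is 0.624 to 1.13 RPM in hyperlipidemic and 1.72 to 3.03 RPM in normal libraries. Normal libraries 3 and 4 stood apart from the rest. Red-cell miRNAs (miR-144, miR-451, miR-486 and miR-363) made up 9.03% and 7.85% of their rno- signal, against 17.9% to 33.1% in the other 6 libraries. The myeloid miR-142 and miR-223 made up 9.34% and 6.08%, against 14.8% to 20.2% in the other 6. These are sums, and not every row followed them. MiR-363-3p was highest in normal libraries 3 and 4, at 696.41 and 713.52 RPM. The highest value of miR-486 was in normal library 4 (16264.03 RPM). In normal library 3, miR-144-5p (4490.31 RPM) and the myeloid miR-223-5p (153.41 RPM) had their highest values. Values without normal libraries 3 and 4 stand beside the results they move most.

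The cluster was a minor part of the miRNA content of the bone. All 52 members had at least 1 read, and together they held 6163 reads over the 8 libraries. Their summed level was 312.7, 538.9, 126.0 and 335.2 RPM in hyperlipidemic libraries 1 to 4, against 407.1, 109.6, 353.3 and 188.6 RPM in normal libraries 1 to 4. Hyperlipidemic library 3 and normal library 2 were the lowest of their groups, hyperlipidemic library 2 and normal library 1 were the highest, and the groups overlapped. As a share of rno- reads, the lowest hyperlipidemic library had 0.0139% (95% Wilson interval 0.0124 to 0.0154) and the highest 0.0605% (0.0577 to 0.0634). In normal libraries the lowest share was 0.0123% (0.0105 to 0.0144) and the highest 0.0459% (0.0426 to 0.0494). The intervals cover counting error only, since reads are not independent molecules, and they are far narrower than the spread between libraries of 1 group. The group means were 328.2 ± 168.9 RPM for the hyperlipidemic and 264.6 ± 139.0 RPM for the normal libraries (SD, n = 4 each), a log2 ratio of 0.31. This ratio was -0.04 without hyperlipidemic library 2 and 0.05 without normal library 2, it was 0.58 without hyperlipidemic library 3, 0.60 without normal library 1, 0.48 without normal library 3 and 0.18 without normal library 4, and it was 0.35 without normal libraries 3 and 4. In bulk bone, fewer cells that make these miRNAs and less of them per cell cannot be told apart.

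Levels within the cluster were uneven. The best-ranked member, miR-411-5p, was 230th among the 604 rno- miRNAs by mean RPM, and the 2 most abundant members held 24.2% of the cluster's signal and the first 10 held 61.0%. MiR-411-5p had 31.19, 56.81, 12.48 and 42.54 RPM in hyperlipidemic libraries 1 to 4, against 55.46, 11.46, 59.55 and 22.46 RPM in normal libraries 1 to 4. MiR-379-5p, from the neighbouring hairpin, had 35.76, 53.32, 11.73 and 34.75 RPM in hyperlipidemic libraries, against 44.03, 8.60, 55.51 and 37.22 RPM in normal libraries. In both, hyperlipidemic library 3 and normal library 2 were lowest, and the normal range enclosed the hyperlipidemic one. MiR-376a-3p followed with 20.79, 53.32, 11.35 and 23.66 RPM in hyperlipidemic libraries, against 33.73, 10.03, 13.12 and 1.92 RPM in normal libraries. Its lowest value, in normal library 4, rests on 3 reads. The next were miR-541-5p (mean over the 8 libraries 15.79 RPM), miR-409a-5p (13.82 RPM), miR-411-3p (13.14 RPM), miR-494-3p (11.94 RPM), miR-300-3p (11.43 RPM), miR-379-3p (11.42 RPM) and miR-341 (10.54 RPM). Adapter ligation and gel selection favour some small RNAs over others, so this is an order of reads and not of molecules in bone, and the ranges of neighbours in it overlap.

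**Figure D1:**
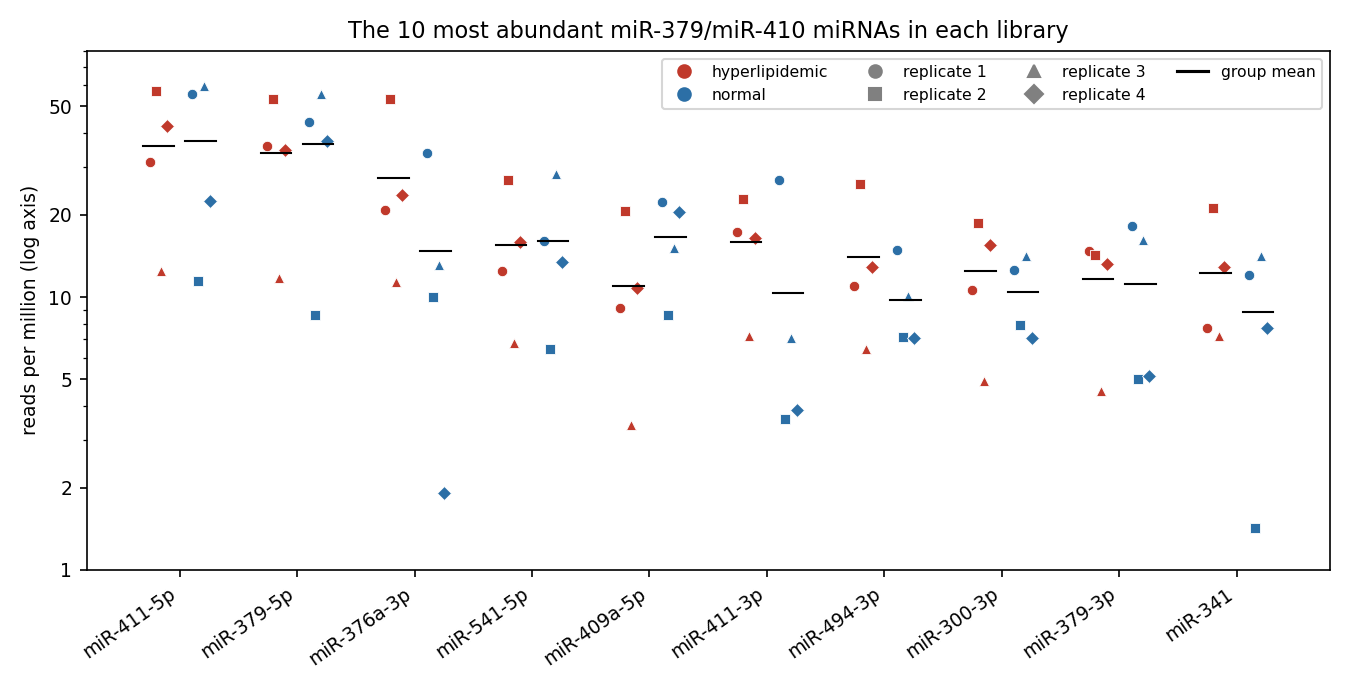
Level of the 10 most abundant members in each library, in RPM on a log axis, with hyperlipidemic libraries in red on the left of each pair and normal libraries in blue on the right; marker shapes are replicates and black lines are group means. The groups overlap for each of these 10 miRNAs, hyperlipidemic replicate 3 is the lowest red point for all 10, and miR-376a-3p reaches down to 1.92 RPM in normal replicate 4.

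The arms of a hairpin were used unequally. Of 21 hairpins with both arms in the table, the 5p arm had more reads in 9 and the 3p arm in 12. The 5p arm held 95.9% of the reads of miR-134, 88.6% of miR-541, 74.6% of miR-379 and 70.7% of miR-411 over all libraries. At the other end it held 0.787% of miR-494, 2.51% of miR-300, 2.94% of miR-376c and 10.9% of miR-376a. For miR-411 the 5p share was 67.8% ± 4.52 over the hyperlipidemic and 79.6% ± 9.84 over the normal libraries (SD, n = 4 each), with overlapping values. The 2 highest were normal library 3 at 89.4% (95% Wilson interval 79.7 to 94.8) and normal library 4 at 85.4% (71.6 to 93.1), and normal libraries 1 and 2 had 67.4% and 76.2%. For miR-376a the 5p share lay between 9.91% and 11.8% in the 4 hyperlipidemic libraries. Normal libraries 1 and 2 had similar or lower shares, 10.6% on 66 reads and 6.67% on 15 reads. In normal libraries 3 and 4 it was 23.5% (95% Wilson interval 9.56 to 47.3) and 40.0% (11.8 to 76.9), the last of these on 5 reads, so a shift of the arms there is poorly resolved at this depth.

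Of the 52 members, 28 from 22 hairpins had enough signal to be tested (above 0 in at least 4 libraries, with a mean of at least 2.375 RPM), and 24 did not. The 28 had 56 to 711 reads each. The untested members with the most reads were miR-382-3p (49 reads), miR-541-3p and miR-543-3p (39 each), miR-369-5p (38), miR-154-3p (31), miR-485-3p (27), miR-323-3p (17), miR-382-5p and miR-485-5p (14 each) and miR-329-5p (12). Under 10 reads each were found for miR-381-3p (9), miR-134-3p (8), miR-299b-5p (7), miR-300-5p, miR-376c-5p and miR-380-5p (6 each), miR-412-5p (5), miR-539-5p and miR-668 (4 each), miR-758-3p (3), miR-494-5p (2), and miR-299b-3p, miR-381-5p and miR-412-3p (1 each). These 24 held 343 reads in all. None was at 0 in all 4 hyperlipidemic libraries, and 5 were at 0 in all 4 normal libraries, which are the shallower ones. The 5 were miR-299b-3p, miR-381-5p, miR-412-3p, miR-539-5p and miR-758-3p, with at most 4 reads each, too few for a comparison at this depth.

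None of the 28 tested miRNAs of the cluster differed past the threshold between the 2 diets. By limma with Benjamini-Hochberg adjustment over the 696 miRNAs tested, 0 of 28 had an adjusted p under 0.05, where 5 of all 696 did (0.718%) and none of the 396 tested rno- miRNAs did. The lowest adjusted p of a member was 0.240. At an unadjusted p under 0.05, 1 member was higher in hyperlipidemic libraries and 0 were lower. Over all tested miRNAs these shares were 6.9% higher and 10.9% lower, and over the tested rno- miRNAs 3.03% higher and 12.6% lower, so 1 of 28 is near the background. One read of a predicted miRNA was worth 6.94 to 16.6 RPM, so that class is coarser. When limma was fitted to the rno- miRNAs alone, 3 of the 396 passed the threshold and 0 members did. At an unadjusted p under 0.05, 4.55% of the 396 and 1 member were then higher. On recovered reads of the 396 rno- miRNAs, edgeR gave 0 members past the threshold (0.253% of the 396 passed) and 3 at an unadjusted p under 0.05, all higher, where 7.07% of the 396 were (28 miRNAs). Voom gave 0 members past the threshold, as it did over all 396, and 5 higher at an unadjusted p under 0.05, where 12.1% of the 396 were (48 miRNAs). No member had groups that did not overlap, higher or lower, against 3.59% higher and 9.05% lower of all tested miRNAs.

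The member with an unadjusted p under 0.05 was miR-376c-3p. It had 13.93, 19.68, 4.16 and 11.08 RPM in hyperlipidemic libraries 1 to 4, against 6.86, 1.43, 4.04 and 1.92 RPM in normal libraries 1 to 4. All hyperlipidemic values but the lowest lay above all normal values, and the normal values rest on 21 reads in all, against 177 in hyperlipidemic libraries. Its log2 fold was 1.67 (SE 0.66, 95% confidence interval 0.17 to 3.17, unadjusted p = 0.0325 and adjusted p = 0.240 by limma). Over the alternative settings its log2 fold ranged from 1.38 to 2.09 and its adjusted p from 0.142 to 0.524, the highest being that without normal libraries 3 and 4.

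The fitted folds of the tested members lay mostly above 0. Of the 28, 22 had a log2 fold above 0, with a median of 0.55 and a range of -0.73 to 1.67. The median was -0.10 over all 696 tested miRNAs and -0.20 over the tested rno- miRNAs, of which 38.1% lay above 0. The 28 move together between libraries, so they are not separate observations, and no test was made over them. Their standard errors were 0.52 to 1.05 with a median of 0.72, against a median of 0.40 over the tested rno- miRNAs. The median of the members was 0.05, with 16 of 29 tested members above 0, when normal library 2 was left out. It was 0.85 without hyperlipidemic library 3 and 0.51 without normal libraries 3 and 4. Median-of-ratios scaling moved the median of all tested rno- miRNAs to 0.05 and that of the members to 0.80. On that scale 26 of 28 were above 0, and the signs of miR-379-5p, miR-541-5p, miR-409a-3p and miR-410-3p turned.

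**Figure D2:**
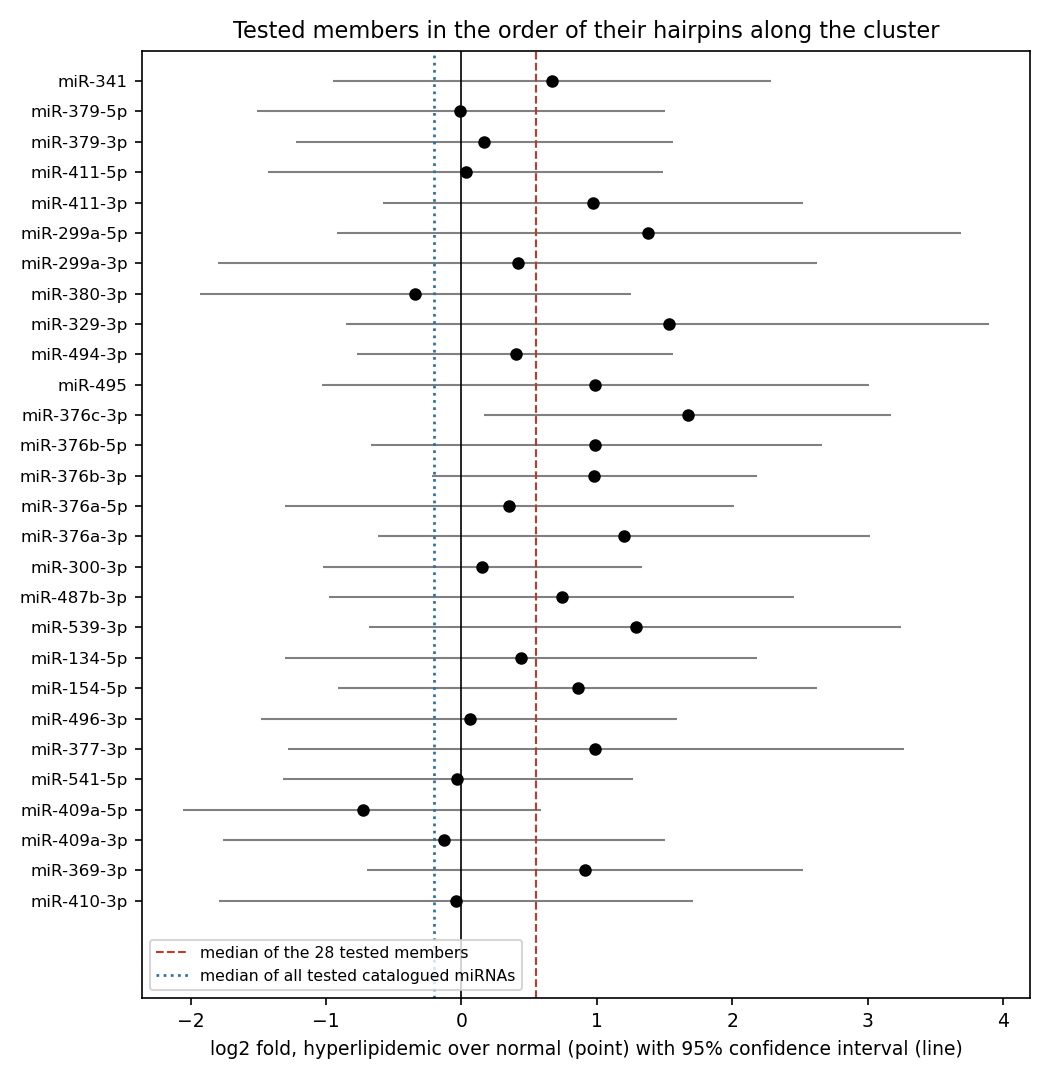
Log2 fold of hyperlipidemic over normal (points) with its 95% confidence interval (lines) for the 28 tested members, from the upstream end of the cluster at the top to the downstream end at the bottom; the dashed and the dotted line are the medians of the 28 members (0.55) and of all tested catalogued miRNAs (-0.20). The interval of miR-376c-3p leaves out 0, and those of the other 27 include it.

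By family, the 5 tested arms of the miR-376 hairpins had log2 folds between 0.35 and 1.67, with a median of 0.99. MiR-376b-3p had 16.22, 20.95, 6.43 and 12.88 RPM in hyperlipidemic libraries, against 12.01, 5.73, 6.06 and 3.85 RPM in normal libraries (log2 fold 0.98, SE 0.53, adjusted p = 0.337 by limma). Without normal libraries 3 and 4 its log2 fold was 0.61. The log2 fold of miR-376a-3p was 1.20 (SE 0.81, adjusted p = 0.430 by limma). It was 0.49 without normal library 4, where the miRNA had 3 reads, and 0.33 without normal libraries 3 and 4. Summed over the 3p arms of the 3 hairpins, the level was 50.94, 93.95, 21.94 and 47.62 RPM in hyperlipidemic libraries 1 to 4, against 52.60, 17.19, 23.22 and 7.69 RPM in normal libraries 1 to 4. Normal library 1 lay among the hyperlipidemic values and hyperlipidemic library 3 among the normal ones. This sum is free of the division of reads among the arms only if shared reads were neither dropped nor counted repeatedly. The counting rule is not stated.

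Other high folds belonged to members with few reads. MiR-329-3p, one of the miRNAs of dendrite growth, had 9.36, 12.06, 1.89 and 6.59 RPM in hyperlipidemic libraries, against 9.72, 0, 5.05 and 0.64 RPM in normal libraries (log2 fold 1.53, SE 1.05, adjusted p = 0.437 by limma). MiR-299a-5p had 4.78, 5.71, 0.38 and 6.89 RPM in hyperlipidemic libraries, against 5.15, 0, 1.01 and 0.64 RPM in normal libraries (log2 fold 1.38, SE 1.02, adjusted p = 0.460 by limma). In each, normal library 1 lay among the hyperlipidemic values, and normal libraries 2 to 4 had 0 to 5 reads. Normal library 3 for miR-329-3p, and normal libraries 3 and 4 for miR-299a-5p, also lay above hyperlipidemic library 3. Without normal library 2, where both are listed at 0, the log2 fold was 0.76 for miR-329-3p and 0.85 for miR-299a-5p, and without hyperlipidemic library 3 it was 2.10 for miR-299a-5p. MiR-539-3p had 5.61, 5.08, 4.54 and 6.59 RPM in hyperlipidemic libraries, against 6.29, 1.43, 5.05 and 0 RPM in normal libraries (log2 fold 1.29, SE 0.87, adjusted p = 0.432 by limma). Its log2 fold was 0.51 without normal library 4, which is listed at 0, and 0.71 without normal libraries 3 and 4. The fold of a member with 0 in a library depends on the pseudocount. MiR-134-5p, the regulator of spines, had a log2 fold of 0.44 (SE 0.77, adjusted p = 0.765 by limma). That value turned to -0.15 without normal library 2 and was 0.04 without hyperlipidemic library 2, and it was 0.93 without hyperlipidemic library 3, 0.68 and 0.67 without normal library 1 or 3, and 0.96 without normal libraries 3 and 4.

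The 6 tested members with folds below 0 came from 5 hairpins, and 4 of the 6 from the downstream end. From Mir541 to Mir410, the last 5 hairpins, 1 of 5 tested members lay above 0 (miR-369-3p, log2 fold 0.91), against 21 of 23 upstream of them. The fold of miR-369-3p was 0.27 without normal library 4 and 0.37 without normal libraries 3 and 4. This split was drawn after the values were seen and was not tested, and the signs of 3 of the 4 turn under median-of-ratios scaling. Without normal libraries 3 and 4, those of miR-541-5p (0.43) and miR-409a-3p (0.85) turned as well. MiR-409a-5p, the fourth, had 9.15, 20.63, 3.40 and 10.78 RPM in hyperlipidemic libraries, against 22.30, 8.60, 15.14 and 20.53 RPM in normal libraries. Hyperlipidemic libraries 1, 2 and 4 lay within the normal range and library 3 below it. The log2 fold was -0.73 (SE 0.59, adjusted p = 0.490 by limma), -0.29 without hyperlipidemic library 3 and -1.11 without hyperlipidemic library 2. The other arm, miR-409a-3p, had a log2 fold of -0.13, and miR-410-3p, the last of the cluster, -0.04. MiR-541-5p (-0.03) and miR-379-5p (-0.01) were close to 0, and miR-380-3p had -0.34 (SE 0.70, adjusted p = 0.802 by limma), which turned to 0.28 without hyperlipidemic library 3. The other 4 of these small folds also turned when 1 library was left out. Where both arms of a hairpin were tested, their folds were not always close. The log2 fold was 0.97 for miR-411-3p and 0.03 for miR-411-5p, and 1.20 for miR-376a-3p and 0.35 for miR-376a-5p. These differences between arms were not tested. Both arms come from the same libraries, so the standard error of a single fold does not measure them. Without normal libraries 3 and 4 the log2 folds were 0.53 for miR-411-3p and 0.30 for miR-411-5p. The fold of miR-376a-5p was -0.01 without normal library 2, and that of miR-411-3p was 1.58 without normal library 1.

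In the authors' deposited table, which gives a ratio of hyperlipidemic over normal, a p-value and a call by the size of the ratio, 13 of the 52 members were called up (14.5% of all 974 rows were) and 0 were called down (6.37% of all rows). The ratios of the 13 in the authors' deposited table were 2.12 to 3.67, led by miR-376c-3p at 3.67 with a p-value of 0.00192 and an adjusted p of 0.164. No member had an adjusted p under 0.05 there: in the authors' deposited table the members' adjusted p ran from 0.164 to 0.994. Of the 13, 12 were among the members tested here, with log2 folds of 0.86 to 1.67 by limma, and the other was miR-154-3p, with 28 reads in hyperlipidemic and 3 in normal libraries. The authors' ratio is not that of the mean RPM. For miR-379-5p it was 1.29 in the authors' deposited table, with means of 33.89 RPM in hyperlipidemic and 36.34 RPM in normal libraries. Among members with folds below 0 here, that table also had miR-380-3p at 1.03, miR-541-5p at 1.22, miR-409a-3p at 1.04 and miR-410-3p at 1.28. MiR-409a-5p, at 0.733 in the authors' deposited table, was lower in hyperlipidemic libraries by both measures.

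The members moved together from library to library within each group. Hyperlipidemic library 3 was the lowest of its group for 28 of 28 tested members, and hyperlipidemic library 2 the highest for 22. Among normal libraries, library 2 was the lowest for 19, library 4 for 8 and library 3 for 1, while library 1 was the highest for 18 and library 3 for 10. The mean log2 level of the 28, relative to the mean of its group, was 0.14, 0.82, -1.18 and 0.22 in hyperlipidemic libraries 1 to 4, and 0.95, -0.98, 0.57 and -0.54 in normal libraries 1 to 4. The span between libraries of 1 group was thus several times the median fold between groups.

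**Figure D3:**
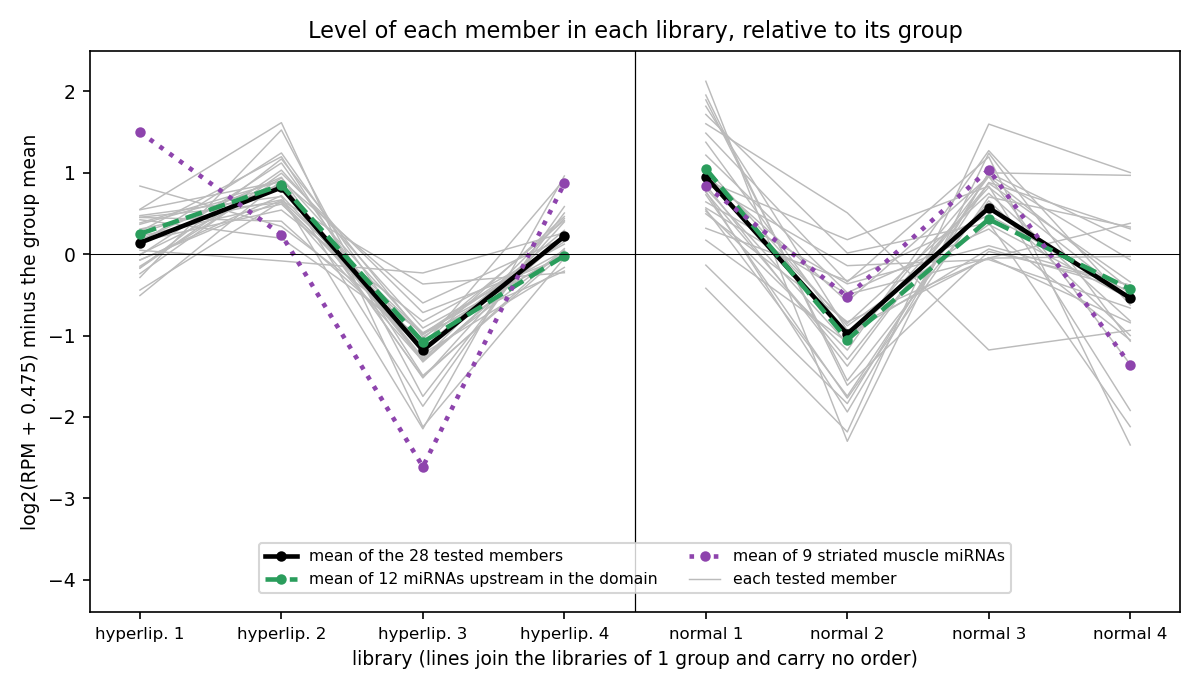
Log2 level of each tested member (grey) in each library minus the mean of its group, with hyperlipidemic libraries on the left and normal libraries on the right; thick lines are the means of the 28 tested members (black), of 12 tested miRNAs upstream in the same domain (green, dashed) and of 9 tested striated muscle miRNAs (purple, dotted). The member mean is lowest in hyperlipidemic library 3 (-1.18) and normal library 2 (-0.98), and the upstream mean lies close to it in all 8 libraries.

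Pairwise, the 378 pairs of tested members had a median Pearson's r of 0.76 over the 8 libraries after the group means were subtracted (interquartile range 0.60 to 0.86), with 371 pairs above 0 and 84.9% above 0.5. Over the 78210 pairs of tested rno- miRNAs the median was 0.13, with 24.6% above 0.5. The points of each pair share libraries, depth and scaling, so these values are a description without a p-value. Without the subtraction the medians were 0.72 for members and 0.14 for rno- pairs. In the 4 hyperlipidemic libraries alone the median was 0.91 for members and 0.24 for rno- pairs, and in the 4 normal libraries alone it was 0.74 for members and 0.10 for rno- pairs. A first principal component held 71.6% of the variance of the 28 members and a second held 16.0%. Over the 396 tested rno- miRNAs, a far larger set, the first held 37.7% and the second 31.9%. The median r of the members was 0.89 without normal libraries 3 and 4, and 0.66 without hyperlipidemic library 3. Quantile normalization lowered it to 0.51, and that of the rno- pairs to 0.00.

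Each member followed the rest of the cluster, though not equally. Its r with the mean of the other 27 ranged from 0.56 to 0.98, with a median of 0.87. It was highest for miR-376c-3p and miR-377-3p (0.98 each) and miR-411-5p (0.97), and lowest for miR-495 and miR-409a-3p (0.56 each), miR-369-3p and miR-539-3p (0.57 each) and miR-299a-3p (0.59). MiR-495 and miR-409a-3p departed in opposite ways in normal libraries 3 and 4. MiR-495 had 1.01 and 1.28 RPM there, beside 9.72 and 4.30 RPM in normal libraries 1 and 2, while miR-409a-3p had 13.12 and 12.83 RPM, beside 5.72 and 1.43 RPM in normal libraries 1 and 2. The most abundant member, miR-411-5p, and the member with the highest fold, miR-376c-3p, both kept close to the cluster's profile across libraries, although their log2 folds were 0.03 and 1.67.

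**Figure D4:**
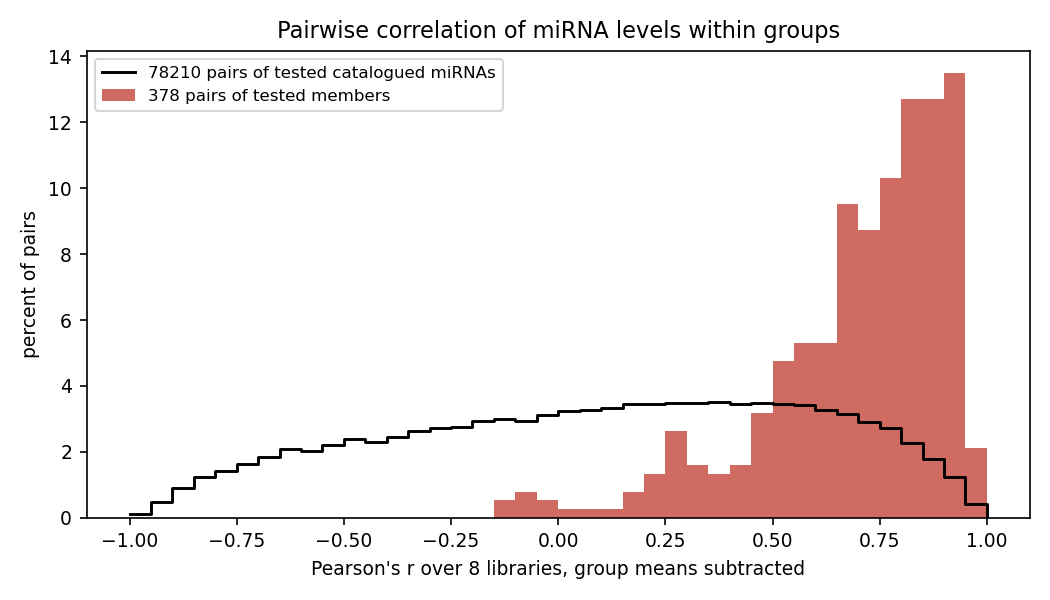
Percent of pairs (vertical axis) by Pearson's r over the 8 libraries with group means subtracted (horizontal axis), for the 378 pairs of tested members (red bars) and the 78210 pairs of tested catalogued miRNAs (black line). The member pairs gather towards 1, with a median of 0.76, while the catalogued pairs spread from -1 to 1 with a median of 0.13.

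The miRNAs upstream in the same imprinted domain, which include miR-127, miR-136, miR-337, miR-431 and miR-434, had a similar profile. Their 21 rows summed to 698.8, 1001, 255.0 and 584.7 RPM in hyperlipidemic libraries 1 to 4, against 751.9, 200.6, 538.0 and 460.0 RPM in normal libraries 1 to 4. The lowest and the highest library of each group were the same as for the cluster. Of the 21, 12 were tested and none passed the threshold (lowest adjusted p = 0.231 by limma), with a median log2 fold of 0.45 and 11 of 12 above 0. Pairs of 1 member and 1 upstream miRNA had a median r of 0.73, and of 0.92 without normal libraries 3 and 4. The closest to the cluster's mean profile were miR-434-3p (r = 0.97), miR-337-3p (0.96) and miR-136-3p (0.94), over 8 libraries. Of 6 rows listed inside the cluster but outside the members, only miR-1193-3p was tested (log2 fold -0.54, SE 0.54, adjusted p = 0.590 by limma), at -0.11 without hyperlipidemic library 3 and -0.90 without hyperlipidemic library 2.

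Outside the domain, the 5 rno- miRNAs whose profiles were most like the cluster's mean were miR-206-3p (r = 0.92), miR-675-3p (0.91), miR-450b-3p (0.91), miR-133b-3p (0.86) and miR-208b-3p (0.85), over 8 libraries with group means subtracted. MiR-206, miR-133b and miR-208b are miRNAs of striated muscle, and miR-675 is cut from H19, an imprinted RNA of another domain. MiR-206-3p had 140.34, 164.71, 4.92 and 179.43 RPM in hyperlipidemic libraries 1 to 4, against 195.54, 24.36, 254.34 and 53.26 RPM in normal libraries 1 to 4. Like most members it was lowest in hyperlipidemic library 3 and normal library 2.

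The 11 striated muscle rows (miR-1, miR-133, miR-206 and miR-499) were each above 0 in at least 1 library, and 9 of them were tested. Their summed level was 7754, 2576, 245.1 and 4424 RPM in hyperlipidemic libraries 1 to 4, against 2441, 819.5, 5442 and 662.8 RPM in normal libraries 1 to 4. Hyperlipidemic library 3 was again the lowest of its group, but the lowest normal library was library 4, and the highest were hyperlipidemic library 1 and normal library 3. Pairs of 1 member and 1 tested muscle miRNA had a median r of 0.61 (0.66 without normal libraries 3 and 4), as had pairs with the cartilage miR-140 and miR-455 (0.61), and pairs with the mesenchymal miR-199a and miR-214 had 0.49. The cartilage rows summed to 2776 to 4780 RPM in hyperlipidemic and 2607 to 6627 RPM in normal libraries, and the mesenchymal rows to 22680 to 49470 RPM in hyperlipidemic and 29870 to 62030 RPM in normal libraries. Most of the mesenchymal sum is miR-199a, and the tested rows of that list did not move alike between groups. Their log2 folds were 0.72 for miR-214-3p, -0.14 for miR-199a-3p and -0.85 for miR-199a-5p (adjusted p = 0.337, 0.824 and 0.248 by limma). With the red-cell, myeloid and lymphoid miRNAs the medians of r were -0.04, 0.07 and 0.00, and they were 0.25 with the endothelial and smooth muscle list, 0.07 with the neural list and 0.06 with the epithelial list. The neural list (miR-124, miR-9a, miR-219a and miR-128) summed to 448.2 to 683.3 RPM in hyperlipidemic and 551.6 to 805.4 RPM in normal libraries. The hepatic miR-122 had 29 reads in all. The part of residual muscle or of any other tissue in the profile of the cluster was not tested.

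The relation of the folds to base composition, looked at after the values were seen, changed sign without normal libraries 3 and 4. Over the 28 tested members, the log2 fold had a Pearson's r of -0.36 and a Spearman's rho of -0.45 with the percent of G and C in the mature sequence, given without a p-value because members share libraries. The 12 members below the median of 42.9% had a median log2 fold of 0.98, and the 16 at or above it 0.38. The summed level of the 12, divided by that of the 16, was 0.653, 0.489, 0.527 and 0.480 in hyperlipidemic libraries 1 to 4, against 0.505, 0.479, 0.276 and 0.177 in normal libraries 1 to 4. Normal libraries 3 and 4 were lowest, and normal libraries 1 and 2 lay beside the lower hyperlipidemic values. Without normal library 4 the r was -0.08 and the rho -0.17. Without normal libraries 3 and 4, an alternative added after seeing the data, they were 0.19 and 0.12, and the median log2 differences were 0.57 for the 12 and 0.52 for the 16. MiR-376c-3p has 33.3% G and C and miR-409a-5p 47.8%. Over the 331 other tested rno- miRNAs with a sequence, of 368, r and rho were each -0.14. The part of base composition or library preparation in the folds was not tested.

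**Figure D5:**
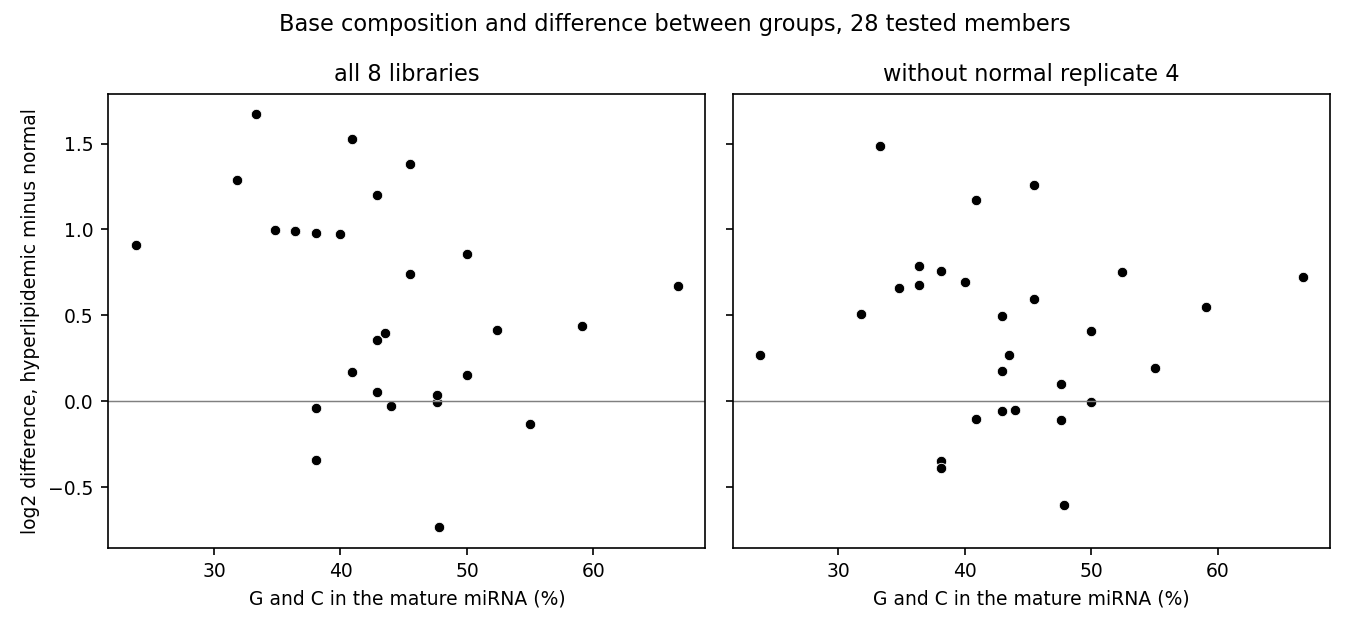
Percent of G and C in the mature miRNA (horizontal axis) against the log2 difference of hyperlipidemic minus normal (vertical axis) for the 28 tested members, with all 8 libraries on the left and without normal replicate 4 on the right. The downward trend on the left (r = -0.36) is weaker on the right (r = -0.08), and without normal replicates 3 and 4 the r, not plotted, is 0.19.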

How the data were processed

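Bone small RNA was sequenced in 8 libraries, 4 a group. Per the submitters' processing notes, bcl2fastq 1.8.4 and the build Rnor_6.0 were used; the aligner, miRNA reference and counting rule are not stated in what was used. The authors named the deposited values FPKM, but the signal counts reads per 1000000 (RPM) of a class, rno- and predicted miRNAs being scaled apart: low values were whole multiples of 1 read (100% within 0.1 read in each class and library), so reads were recovered, and no length entered. The authors also deposited a ratio (fold) with its log2, p-values raw and adjusted, and a verbal call, per the file headers, with no test named. Groups came from the labels.

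Values were tested as log2(RPM + 0.475), whose pseudocount is the smallest nonzero value of a library (median of 8), with limma 3.58.1 in R 4.3.3 (lmFit, eBayes with a trend), two-sided, on all 696 miRNAs above 0 in at least 4 libraries with a mean of at least 5 pseudocounts (2.375 RPM). Folds are on this scale, which shrinks those of low miRNAs. Alternatives were another pseudocount, no filter, other scalings, rno- miRNAs alone, voom, edgeR 4.0.16 on recovered reads, a replicate block and left-out libraries. The filter and the limma fit were tried on simulated counts in which miRNAs varied independently, and the other steps were not. Sequences and gene order come from RefSeq tables of GRCr8, whose coordinates are not printed because the build differs. The members and lists were chosen with earlier results of these data known. The text names the 10 most abundant members, those with an unadjusted p under 0.05, the 5 highest and 5 lowest folds, untested members, and the 5 outside miRNAs most alike in profile; others are named for their hairpin, family or place.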

Additional observations from a re-analysis of the deposited data

Results flagged for a closer look

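For miR-379-3p, hyperlipidemic replicate 3 lay far from its group: it had 4.54 RPM, and the other 3 hyperlipidemic libraries lay between 13.18 and 14.76 RPM. For miR-411-3p, normal replicate 1 lay far from its group: it had 26.87 RPM, and the other 3 normal libraries lay between 3.58 and 7.06 RPM. Hyperlipidemic replicate 3 was the lowest of its group for 28 of 28 tested members and normal replicate 1 the highest for 18. These were the 2 cases in 68 groups of 4 libraries (tested members and summed lists) looked at with Dixon's criterion, where chance alone gives about 1 in 20 groups.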

How the results depend on the processing

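No member passed the threshold under any of the 18 alternatives. The number at an unadjusted p under 0.05 and higher in hyperlipidemic libraries, 1 as reported, was 2 with no filter, with median-of-ratios factors or with quantile normalization, 5 with voom and 3 with edgeR. The tested rno- miRNAs called in the same way were 3.03% as reported, 4.14% with no filter, 6.57% with median-of-ratios factors, 5.05% with quantile normalization, 12.1% with voom and 7.07% with edgeR, beside 3.85%, 7.14%, 7.14%, 17.9% and 10.7% of the tested members. The number of members was 0 without both normal libraries 3 and 4 (rno- 0.761%) and 0 to 4 with 1 library left out (rno- 1.01% to 5.34%), the 4 being without normal library 1. None was lower under any alternative. With the replicate block the number higher was 0 (rno- 2.78%), and the median log2 fold stayed at 0.55. Same-numbered libraries had correlations of 0.19, -0.08, -0.02 and 0.15 over the tested miRNAs, and differently numbered ones -0.16 to 0.08. Over the members, same-numbered libraries had 0.18, -0.04, 0.41 and -0.04, and differently numbered ones -0.34 to 0.22. The replicate numbers gave no clear pairing, so the block is only an alternative. The median log2 fold of the tested members ranged from 0.05 to 0.87, and that of the other 13 tested Dlk1-Dio3 miRNAs (the 12 upstream and miR-1193-3p), 0.39 with the reported settings, from 0.03 to 0.76. The median r of member pairs was 0.51 with quantile normalization.

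Among 395 refitted folds of 22 miRNAs (21 members and miR-1193-3p), 47 had the opposite sign to the one reported. The reported fold was 0.44 for miR-134-5p and 0.35 for miR-376a-5p, which turned only without normal library 2, and lay between -0.34 and 0.17 for the other 8 that turned. With median-of-ratios factors the log2 fold was 0.25 for miR-379-5p, 0.23 for miR-541-5p, 0.11 for miR-409a-3p and 0.17 for miR-410-3p. Rescaled without the red-cell list it was 0.18 for miR-379-5p, 0.15 for miR-541-5p, 0.04 for miR-409a-3p and 0.10 for miR-410-3p. With quantile normalization it was 0.13 for miR-379-5p and 0.23 for miR-541-5p. With voom it was 0.35 for miR-379-5p, 0.33 for miR-541-5p, 0.02 for miR-380-3p, 0.18 for miR-409a-3p and 0.32 for miR-410-3p. With edgeR it was 0.27 for miR-379-5p, 0.33 for miR-541-5p, 0.20 for miR-380-3p and 0.21 for miR-410-3p. Without both normal libraries 3 and 4 it was 0.59 for miR-379-5p, 0.43 for miR-541-5p and 0.85 for miR-409a-3p. With 1 library left out the log2 fold ran from -0.42 to 0.46 for miR-411-5p, -0.59 to 0.43 for miR-379-5p, -0.39 to 0.30 for miR-541-5p, -0.09 to 0.52 for miR-300-3p, -0.11 to 0.55 for miR-379-3p, -0.64 to 0.28 for miR-380-3p, -0.74 to 0.20 for miR-409a-3p -0.39 to 0.47 for miR-410-3p, -0.15 to 0.93 for miR-134-5p and -0.01 to 0.63 for miR-376a-5p. The median log2 fold of the tested rno- miRNAs, -0.20 as reported, moved with these settings too. It was 0.05 with median-of-ratios factors, -0.03 rescaled without the red-cell list, -0.08 with quantile normalization, 0.14 with voom and 0.12 with edgeR. In the same order, the median of the tested members, 0.55 as reported, was 0.80, 0.72, 0.56, 0.87 and 0.82. The cause of the turned signs was not tested. Depth limits the normal libraries most, where 1 read is worth up to 1.01 RPM.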
